A study of Homo sapiens with 12 samples.

Results

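The genes described here encode the voltage-gated calcium and sodium channels and the potassium channels, measured by RNA sequencing in 2 human Ewing sarcoma cell lines and in a derivative of each that resists the small molecule YK-4-279. They were chosen by symbol, as every KCN, CACNA1, CACNA2D, CACNB, CACNG or SCN gene with its usual letters and number. The pattern takes 134 of the 56609 gene symbols in the files, and 64 of the 134 reached 1 CPM (counts per 1000000 reads, as the authors scaled them) in at least 3 of the 12 libraries, as did 14335 genes in all. These 64 were tested and the other 70 were not. The 4 groups of 3 libraries each are A4573-R, grown with YK-4-279 (650 uM in the labels), A4573 parental, grown with the solvent DMSO, TC-71-R, grown with YK-4-279 (400 uM in the labels), and TC-71 parental, grown with DMSO. The doses are printed as labelled, since their unit is in doubt for a compound of this kind. The culture medium of all groups was RPMI with HEPES and 10% fetal bovine serum. Resistance and the presence of the compound go together in both derivatives and cannot be told apart. The labels do not say how the derivatives were selected or whether the libraries of a group came from separate cultures, so p-values measure the spread between these libraries, which may be technical.

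Voltage-gated channels are membrane proteins whose pore opens when the voltage across the membrane changes. Calcium channels consist of a pore-forming alpha-1 subunit with auxiliary alpha-2-delta and beta subunits, sodium channels of an alpha subunit with small beta subunits, and potassium channels of several pore-forming subunits that often bind auxiliary proteins. Calcium and sodium channels carry current into the cell, while potassium channels set the resting voltage and bring it back after excitation. Ewing sarcoma arises in bone and soft tissue, and its driver is EWS-FLI1, a fusion of an RNA-binding protein with an ETS transcription factor. YK-4-279 was designed to keep EWS-FLI1 from binding RNA helicase A.

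Between 44.0 and 62.1 M reads (M, 1000000) fell on named genes in each library. On the authors' scale, which also counts entries with no gene name, 1 read is worth 0.0103 to 0.0148 CPM. Of 7 markers of Ewing sarcoma, NKX2-2, NR0B1, STEAP1, LIPI and PRKCB were above 1 CPM in every library, CCK only in the 6 libraries of the A4573 lines, and CD99 was listed at 0 to 0.0145 CPM, for a reason that was not tested. Summed markers of blood, endothelium, epithelium, skeletal muscle and glia reached at most 1.82 CPM in any library. The 4 markers of mature neurons summed to 134 to 149 CPM in A4573-R and 69.3 to 72.6 CPM in A4573 parental, and to 233 to 243 CPM in TC-71-R and 272 to 276 CPM in TC-71 parental. Most of that sum is SYT1, a synaptic vesicle gene. SNAP25 averaged 7.01 CPM in A4573-R and 6.97 CPM in A4573 parental, and 1.01 CPM in TC-71-R and 0.925 CPM in TC-71 parental. The neuronal genes RBFOX3 and STMN2 stayed at or under 0.181 CPM. This sum is higher in A4573-R and lower in TC-71-R, and its part in the results below was not tested. In bulk RNA, fewer cells of a type and less RNA per cell cannot be told apart.

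Most channel genes were low, and a few were abundant. Of the 134 members, 7 were at 0 in all 12 libraries, and the highest value of any member not tested was 1.31 CPM. At the edge of the filter, the third-highest CPM was 1.04 for KCNIP4, 1.07 for KCNK15 and 1.1 for KCNF1, just inside, and 0.954 for KCNA2, 0.866 for KCNJ3 and 0.826 for KCNE2, just outside. Among the 64 tested members, 26 had at least 1 CPM in all 12 libraries. A mean of at least 1 CPM was found for 47 members in A4573-R, 43 in A4573 parental, 45 in TC-71-R and 46 in TC-71 parental. The 4 genes of calcium channel beta subunits all passed the filter, while only 4 of 15 two-pore potassium channel genes and 3 of 8 calcium channel gamma genes did. A member that passed the filter only through the group in which it is high had to differ, so counts over the 64 are descriptions and not support for a change of the family.

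**Figure D1:**
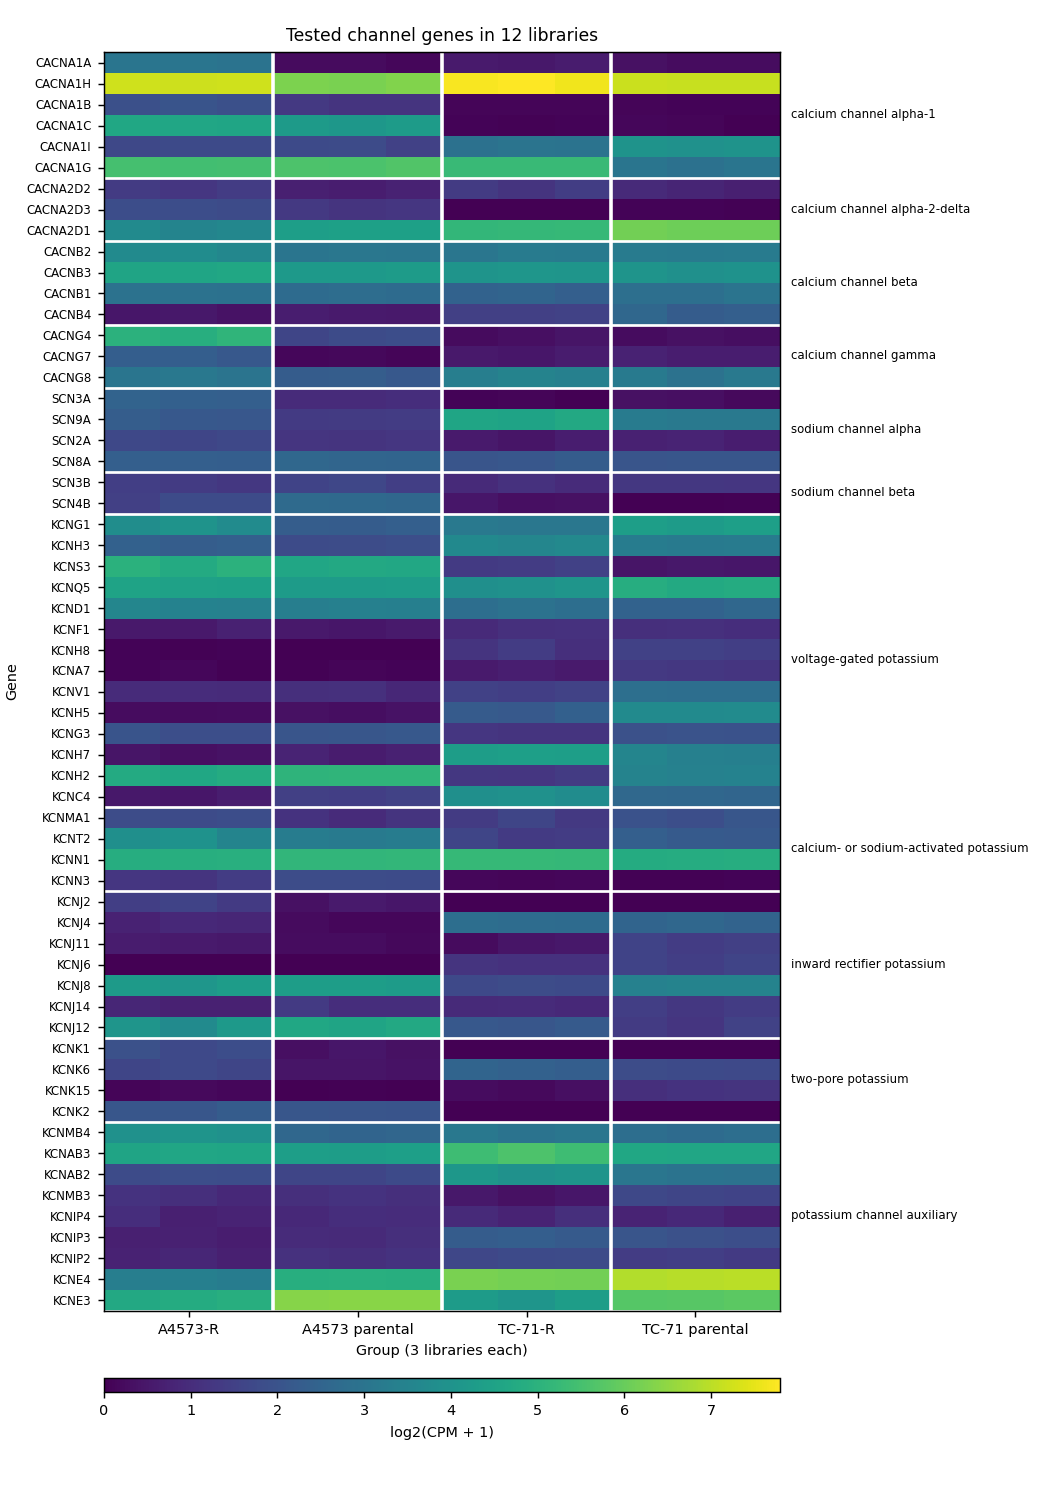
Levels of 60 of the 64 tested channel genes as log2(CPM + 1) in the 12 libraries, in columns by group with 3 libraries each and in rows by channel class. CACNA1H, KCNE3 and KCNE4 are the brightest rows, most differences run between the A4573 and the TC-71 lines, and the 3 libraries of a group look alike.

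Per kilobase of merged exons, the calcium channel gene CACNA1H had the highest level of the family, with a mean of 16.7 CPM per kilobase over the 4 groups. It was followed by the potassium channel auxiliary genes KCNE4 with 14.0 and KCNE3 with 12.3 CPM per kilobase. KCNN1, a small-conductance calcium-activated potassium channel gene, had 7.93 CPM per kilobase, and KCNAB3, which encodes a cytoplasmic beta subunit, had 5.99. The next were KCNJ8 with 4.94, KCNS3 with 4.46 and CACNA2D1 with 3.73 CPM per kilobase. The order differed between groups. KCNE3 led in A4573 parental with 22.6 CPM per kilobase, KCNE4 led in TC-71 parental with 29.6, and CACNA1H led in A4573-R with 17.2 and in TC-71-R with 24.4. KCNS3 had 9.41 CPM per kilobase in A4573-R and 7.79 in A4573 parental, but 0.521 in TC-71-R and 0.122 in TC-71 parental. The annotated exons of a gene, rather than the transcripts these cells use, set the length, so levels of different genes are approximate.

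**Figure D2:**
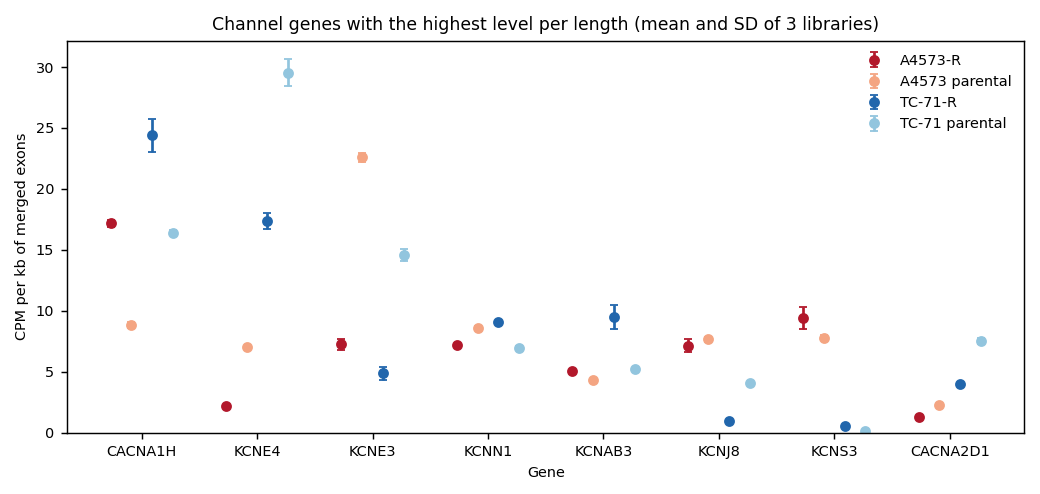
Level of the 8 channel genes with the highest CPM per kilobase of merged exons, in the 4 groups. Points are means and bars are SD of 3 libraries. CACNA1H, KCNE4 and KCNE3 stand above the other genes in at least 1 group, and KCNS3 is near 0 in both TC-71 groups.

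In A4573-R against A4573 parental, 50 of the 64 tested channel genes passed the test (limma on log2(CPM + 1), Benjamini-Hochberg adjustment over 14335 genes, threshold 0.05), with 32 higher and 18 lower. Here and below, a gene is called higher or lower only where it passed this test. Of all tested genes 72.5% passed, 38.3% higher and 34.1% lower, so the share of channel genes that passed is near the background. At 2-fold or more on this scale, 8 members were higher and 2 lower, against 5.72% of all tested genes, 3.49% higher and 2.23% lower. The libraries of the 2 groups did not overlap for 55 members and for 74.6% of all tested genes. In TC-71-R against TC-71 parental, 50 of 64 passed as well, 24 higher and 26 lower, and 78.5% of all tested genes did, 38.8% higher and 39.6% lower. At 2-fold or more, 6 members were higher and 10 lower, against 10.3% of all tested genes, 4.52% higher and 5.82% lower. The groups did not overlap for 53 members and for 81.1% of all tested genes. The scale of log2(CPM + 1) understates the change of genes with few CPM. edgeR on the recovered reads put 24 members at 2-fold or more in A4573-R, 19 higher and 5 lower, against 12.1% of all tested genes, 7.44% higher and 4.66% lower. In TC-71-R edgeR put 29 members there, 12 higher and 17 lower, against 17.2% of all tested genes, 7.82% higher and 9.38% lower. The median log2 fold change of the 64 was 0.12 in A4573-R and 0.00 in TC-71-R, against 0.02 and -0.00 over all tested genes. The median size of the change was 0.36 and 0.53, against 0.25 and 0.33 over all tested genes.

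The calcium channel genes moved mostly up in A4573-R. Of the 16 tested, 12 were higher and 2 lower in A4573-R, with a median log2 fold change of 0.61, while 5 were higher and 4 lower in TC-71-R, with a median of -0.00. Of all tested genes 38.3% were higher and 34.1% lower in A4573-R, and 38.8% were higher and 39.6% lower in TC-71-R. By class, A4573-R had 4 of 6 alpha-1 genes, 2 of 3 alpha-2-delta genes, 3 of 4 beta genes and 3 of 3 gamma genes higher. The change in A4573-R exceeded the change in TC-71-R for 13 of the 16, past the threshold for the difference, and was below it for 1, CACNA1G. That background is 40.2% of all tested genes in the first direction and 37.9% in the second. CACNA1B, CACNA1C, CACNA2D3 and CACNG4 averaged at most 0.257 CPM in each TC-71 group, where log2(CPM + 1) keeps any change small. CACNA1A and CACNG7 passed the filter only through the A4573-R libraries. The count of 13 is therefore a description and no support for a difference of the family.

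CACNA1A, the pore-forming subunit of P/Q-type calcium channels of nerve terminals, lies on chromosome 19 (13206442 to 13633025, minus strand, GRCh38). It had 7.22, 7.16 and 6.84 CPM in A4573-R, against 0.173, 0.175 and 0.0964 CPM in A4573 parental. In the other line it had 0.489, 0.42 and 0.515 CPM in TC-71-R, against 0.274, 0.193 and 0.189 CPM in TC-71 parental. The 3 A4573-R libraries stand far above the other 9, and neither derivative overlaps its parent. The ratio of mean CPM was 47.8 in A4573 (log2 fold change 2.81 ± 0.05 SE, limma adjusted p = 1.6e-15) and 2.17 in TC-71 (0.28 ± 0.05, limma adjusted p = 0.00015).

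EWS-FLI1 is known to bind repeats of the bases GGAA, and the promoters of channel genes, 250 bases before to 50 after the start of the gene in RefSeq on GRCh38.p14, were searched for GGAAGGAA on both strands. Of the 64 tested members, 43 have a promoter in that table. The motif was found in 2 of the 43 (4.65%), in CACNA1A and in the two-pore potassium channel gene KCNK6, against 978 of all 27305 promoters (3.58%) and 351 of the 10469 promoters of tested genes (3.35%). Both are printed in the direction of the gene with the match in capitals, beside the promoter of KCNE3, which holds no match. CACNA1A and KCNK6 were higher in both derivatives, and KCNE3 was lower in both. The promoters of SCN9A, higher in both derivatives, and KCNK1, higher in A4573-R, hold no match either. A link of the match to the direction of change was not tested.
CACNA1A, chr19:13506430-13506729, minus strand: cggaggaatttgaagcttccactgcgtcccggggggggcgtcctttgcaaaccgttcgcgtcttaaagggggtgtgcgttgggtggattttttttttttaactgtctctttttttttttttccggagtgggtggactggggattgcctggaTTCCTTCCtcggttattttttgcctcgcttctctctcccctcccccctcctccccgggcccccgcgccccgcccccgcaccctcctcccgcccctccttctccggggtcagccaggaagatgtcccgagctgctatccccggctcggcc
KCNK6, chr19:38319595-38319894, plus strand: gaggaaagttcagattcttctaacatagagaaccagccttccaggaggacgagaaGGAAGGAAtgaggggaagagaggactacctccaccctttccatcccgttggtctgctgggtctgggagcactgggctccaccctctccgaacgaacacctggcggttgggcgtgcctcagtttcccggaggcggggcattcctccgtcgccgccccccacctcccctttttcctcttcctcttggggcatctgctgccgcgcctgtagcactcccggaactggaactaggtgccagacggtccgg
KCNE3, chr11:74467500-74467799, minus strand: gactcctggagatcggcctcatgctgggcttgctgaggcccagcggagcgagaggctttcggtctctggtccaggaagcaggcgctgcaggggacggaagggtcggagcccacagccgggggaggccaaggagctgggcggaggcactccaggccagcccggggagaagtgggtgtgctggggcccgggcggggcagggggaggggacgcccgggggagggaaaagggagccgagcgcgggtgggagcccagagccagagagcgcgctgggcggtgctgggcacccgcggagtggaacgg
The match in CACNA1A reads TTCCTTCC, since it is on the other strand, and starts at base 152 of the window, and the match in KCNK6 starts at base 56. The RefSeq start of CACNA1A lies inside the longer GENCODE gene, so transcripts that begin elsewhere have other promoters. The median GC content was 70.3% in the promoters of tested members and 58.3% in all promoters. A match is a run of letters and no evidence of binding, and the absence of one says only that these letters are not in this window.

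The T-type channels, which open at low voltage, are encoded by CACNA1G, CACNA1H and CACNA1I, and each behaved in its own way. CACNA1G, on chromosome 17 (50561068 to 50627474, plus strand), had 44.3, 42.2 and 43.6 CPM in A4573-R, against 47.9, 47 and 49.7 CPM in A4573 parental. In the other line it had 38.3, 38.2 and 37.6 CPM in TC-71-R, against 7.14, 6.54 and 7.15 CPM in TC-71 parental. Only TC-71 parental stands low, so the derivative of TC-71 came near the level of both A4573 groups. The log2 fold change was -0.15 ± 0.04 in A4573-R (limma adjusted p = 0.0032) and 2.30 ± 0.04 in TC-71-R (limma adjusted p = 4.6e-16), and the difference of the changes was -2.45 ± 0.06 (limma adjusted p = 2e-14).

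CACNA1H, the most abundant channel gene on average over the groups, had 148 ± 2.39 CPM in A4573-R and 76.2 ± 2.07 CPM in A4573 parental, and 210 ± 11.7 CPM in TC-71-R and 141 ± 2.04 CPM in TC-71 parental (SD, n = 3 each). It was higher in both derivatives, by 0.95 ± 0.04 in A4573-R and 0.57 ± 0.04 in TC-71-R on the log2 scale, with no overlap in either line. CACNA1I had 2.24, 2.36 and 2.38 CPM in A4573-R, against 2.33, 2.44 and 1.86 CPM in A4573 parental, and the groups overlap. It had 6.53, 6.95 and 6.84 CPM in TC-71-R, against 14.9, 14.5 and 15 CPM in TC-71 parental, so that it was lower in TC-71-R in every library (log2 fold change -1.02 ± 0.06, limma adjusted p = 5.4e-10). Of the 3 T-type genes, TC-71-R thus had CACNA1G and CACNA1H higher and CACNA1I lower.

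The remaining alpha-1 genes were close to absent from TC-71. CACNA1C, the L-type channel subunit of heart and smooth muscle, averaged 23.4 ± 0.495 CPM in A4573-R and 17.6 ± 0.846 CPM in A4573 parental, but 0.0491 ± 0.0199 CPM in TC-71-R and 0.0636 ± 0.0487 CPM in TC-71 parental (SD, n = 3 each). Its log2 fold change was 0.39 ± 0.05 in A4573-R (limma adjusted p = 6.3e-06). CACNA1B, the N-type channel subunit of nerve terminals, had 2.76, 3.04 and 2.71 CPM in A4573-R, against 1.47, 1.27 and 1.25 CPM in A4573 parental, and at most 0.074 CPM in any TC-71 library. CACNA1B was higher in A4573-R by 0.72 ± 0.05 on the log2 scale.

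Among the tested auxiliary calcium channel genes, the 3 gamma genes had the largest changes in A4573-R on the log2(CPM + 1) scale. CACNG4, whose product also acts as an auxiliary protein of AMPA-type glutamate receptors, lies on chromosome 17 (66964910 to 67033398, plus strand). It had 31.2, 28.4 and 33.4 CPM in A4573-R, against 2.1, 2.47 and 2.6 CPM in A4573 parental, and 0.163, 0.236 and 0.371 CPM in TC-71-R, against 0.191, 0.266 and 0.222 CPM in TC-71 parental. The A4573-R libraries stand apart, and the TC-71 groups overlap. The log2 fold change was 3.24 ± 0.07 in A4573-R (limma adjusted p = 2e-14) and 0.03 ± 0.07 in TC-71-R (limma adjusted p = 0.7). Its neighbours CACNG1, at 11.2 kb, and CACNG5, at 79.4 kb, did not pass the filter and reached at most 0.103 and 0.0434 CPM.

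CACNG7, another such gene, on chromosome 19 (53909335 to 53943941, plus strand), had 4.05, 4 and 3.39 CPM in A4573-R, against 0.106, 0.128 and 0.0723 CPM in A4573 parental. It had 0.459, 0.393 and 0.505 CPM in TC-71-R, against 0.68, 0.543 and 0.543 CPM in TC-71 parental. The A4573 groups do not overlap, with a ratio of mean CPM of 37.3 and a log2 fold change of 2.12 ± 0.06 (limma adjusted p = 2e-13), while the change in TC-71-R did not pass (-0.13 ± 0.06, limma adjusted p = 0.065). CACNG8 lies 19.1 kb from CACNG7 and averaged 7.29 ± 0.336 CPM in A4573-R and 3.71 ± 0.243 CPM in A4573 parental, and 9.61 ± 0.497 CPM in TC-71-R and 7.54 ± 0.81 CPM in TC-71 parental (SD, n = 3 each). CACNG8 was higher in both derivatives, by 0.82 ± 0.07 in A4573-R and 0.32 ± 0.07 in TC-71-R on the log2 scale.

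Alpha-2-delta and beta subunits carry the channel to the membrane and tune its opening. In A4573-R the median size of the change of their genes was 0.64 and 0.27 on the log2 scale, against 2.12 for the gamma genes. In TC-71-R it was 0.51 and 0.27, against 0.13. Only 3 gamma genes were tested. Their median of 2.12 is the value of CACNG7, which passed the filter only through A4573-R, so it does not rank the classes. CACNA2D1, the target of the drug gabapentin, had 12.4, 10.5 and 11.2 CPM in A4573-R, against 19.5, 20.4 and 20.7 CPM in A4573 parental, and 35.1, 35.4 and 36.4 CPM in TC-71-R, against 69.7, 66.5 and 65.8 CPM in TC-71 parental. It was lower in both derivatives with no overlap, with log2 fold changes of -0.78 ± 0.05 in A4573-R and -0.90 ± 0.05 in TC-71-R, and the difference of the changes did not pass (0.12 ± 0.07, limma adjusted p = 0.14). CACNB3, the most abundant beta gene, averaged 23.2 ± 0.81 CPM in A4573-R and 17.8 ± 0.492 CPM in A4573 parental, and 15.7 ± 0.452 CPM in TC-71-R and 14.7 ± 0.728 CPM in TC-71 parental. It passed in A4573-R (log2 fold change 0.36 ± 0.04) and not in TC-71-R (0.09 ± 0.04, limma adjusted p = 0.076). CACNB4 averaged 1.83 ± 0.0817 CPM in TC-71-R and 4.34 ± 0.669 CPM in TC-71 parental and was lower there (log2 fold change -0.91 ± 0.07).

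**Figure D3:**
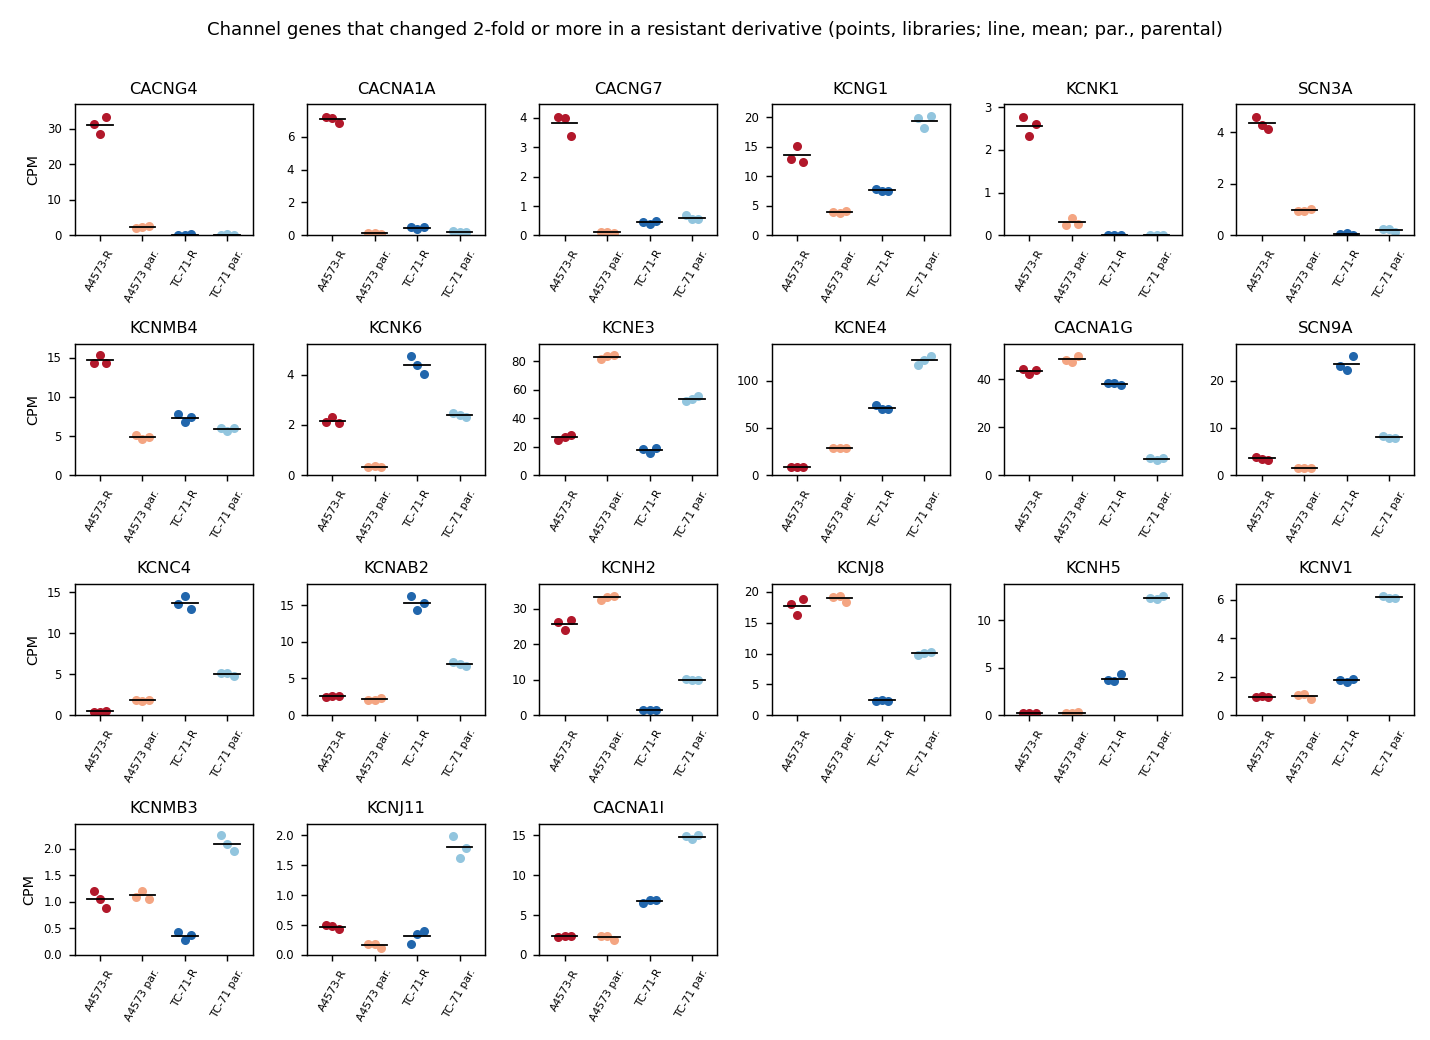
CPM in every library for the reported channel genes that passed the test with no overlap and a change of 2-fold or more in a resistant derivative. Points are libraries and lines are group means, on linear axes from 0. CACNG4, CACNA1A and CACNG7 are high only in A4573-R, CACNA1G is low only in TC-71 parental, and KCNE3 is low in both derivatives.

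Sodium channel alpha genes encode the pore that starts the action potential in nerve and muscle. All 5 tested passed in A4573-R, 3 higher and 2 lower, against 72.5% of all tested genes. In TC-71-R 4 of the 5 passed, 2 higher and 2 lower, near the background of 78.5%. With only 5 genes these shares are descriptions. SCN3A, a channel mainly of the developing brain, on chromosome 2 (165087522 to 165204067, minus strand), had 4.6, 4.29 and 4.12 CPM in A4573-R, against 0.957, 0.943 and 1.02 CPM in A4573 parental. In the TC-71 line it had 0.0444, 0.0787 and 0.0206 CPM in TC-71-R, against 0.262, 0.242 and 0.144 CPM in TC-71 parental. The groups do not overlap in either line and the directions are opposite. On the log2(CPM + 1) scale the fold changes were 1.43 ± 0.05 in A4573-R (limma adjusted p = 3.4e-12) and -0.21 ± 0.05 in TC-71-R (limma adjusted p = 0.0018). That scale understates changes of genes with few CPM, and the ratio of mean CPM was 4.45 in A4573 and 0.222 in TC-71. The ratio in TC-71 is uncertain, since it rests on 11 reads in all of TC-71-R and 55 in TC-71 parental.

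SCN2A, a channel of brain neurons whose gene overlaps that of SCN3A on the other strand, had 2.21, 2.11 and 2.25 CPM in A4573-R, against 1.28, 1.23 and 1.34 CPM in A4573 parental. SCN2A was higher in A4573-R (log2 fold change 0.48 ± 0.05) and lower in TC-71-R (-0.17 ± 0.05), the same directions as SCN3A. The annotated exons of SCN2A and SCN3A share no bases with each other. Another gene, AC019197.1, shares 1.0% of the exon bases of SCN2A and 9.9% of those of SCN3A. The sources used here do not say whether counting was strand-specific, so the effect of these bases on the counts is uncertain.

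SCN9A, the main channel of pain-sensing neurons, on chromosome 2 (166195185 to 166376001, minus strand), had the highest mean CPM of the sodium channel genes over the 12 libraries. It had 3.92, 3.47 and 3.31 CPM in A4573-R, against 1.5, 1.55 and 1.63 CPM in A4573 parental, and 23.2, 22.2 and 25.2 CPM in TC-71-R, against 8.41, 7.86 and 7.89 CPM in TC-71 parental. Both derivatives stand above their parents with no overlap, by 0.83 ± 0.06 in A4573-R and 1.44 ± 0.06 in TC-71-R on the log2 scale. SCN1A, 46 kb from SCN9A, and SCN7A, at 27.6 kb, did not pass the filter.

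The beta subunit gene SCN4B changed in opposite directions in the derivatives. It had 1.76, 2.45 and 2.46 CPM in A4573-R, against 5.51, 5.34 and 5.14 CPM in A4573 parental. In TC-71-R it had 0.4, 0.236 and 0.268 CPM, against 0, 0.0121 and 0.0222 CPM in TC-71 parental, where 3 reads are worth 0.0333 to 0.0362 CPM. SCN4B changed by -0.98 ± 0.08 in A4573-R and 0.36 ± 0.08 in TC-71-R on the log2(CPM + 1) scale. That scale understates the change in TC-71-R, where the gene has few CPM.

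Voltage-gated potassium channel genes form the largest class, with 17 tested. In A4573-R 6 were higher and 4 lower, and in TC-71-R 7 were higher and 9 lower. The background is 72.5% of all tested genes in A4573-R and 78.5% in TC-71-R. At 2-fold or more, 1 was higher in A4573-R, against a background of 5.72% in both directions, while 2 were higher and 5 lower in TC-71-R, against 10.3%. KCNH2 had the largest fall of any channel gene in TC-71-R.

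KCNQ5, an M-channel gene of brain and muscle and the voltage-gated potassium channel gene with the highest mean CPM over the 12 libraries, averaged 21.1 ± 0.896 CPM in A4573-R and 18.6 ± 0.349 CPM in A4573 parental, and 14.7 ± 0.918 CPM in TC-71-R and 26.8 ± 0.938 CPM in TC-71 parental. It changed by 0.18 ± 0.05 in A4573-R and by -0.83 ± 0.05 in TC-71-R on the log2 scale.

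KCNH2 encodes the hERG channel, which repolarises heart muscle, and lies on chromosome 7 (150944961 to 150978315, minus strand). It had 26.2, 23.9 and 26.9 CPM in A4573-R, against 32.6, 33.4 and 33.6 CPM in A4573 parental, and 1.42, 1.36 and 1.58 CPM in TC-71-R, against 10.3, 9.79 and 9.99 CPM in TC-71 parental. It was lower in both derivatives with no overlap. The log2 fold change was -0.36 ± 0.05 in A4573-R (limma adjusted p = 1.1e-05) and -2.17 ± 0.05 in TC-71-R (limma adjusted p = 1.1e-14), and the fall was larger in TC-71-R by 1.81 ± 0.07 (limma adjusted p = 5.3e-12).

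Its relatives of the KCNH family differed. KCNH5, an ether-a-go-go channel gene of brain, had 3.72, 3.55 and 4.28 CPM in TC-71-R, against 12.3, 12.2 and 12.5 CPM in TC-71 parental, and was at or under 0.289 CPM in every A4573 library. It was lower in TC-71-R with no overlap (log2 fold change -1.46 ± 0.06, limma adjusted p = 2.1e-12). KCNH7, a close relative of KCNH2, had 19.4, 19.9 and 19.6 CPM in TC-71-R, against 10.6, 9.53 and 9.28 CPM in TC-71 parental, and 0.347, 0.25 and 0.31 CPM in A4573-R, against 0.718, 0.512 and 0.626 CPM in A4573 parental. In the TC-71 line KCNH7 was higher (0.94 ± 0.06) while KCNH2 was lower, and in the A4573 line both were lower (-0.31 ± 0.06 for KCNH7).

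KCNG1 and KCNV1 encode silent subunits, which form no channel alone and modify other potassium channels. KCNG1, on chromosome 20 (51003656 to 51023129, minus strand), had 13, 15.2 and 12.5 CPM in A4573-R, against 3.89, 3.83 and 4.16 CPM in A4573 parental, and 7.91, 7.46 and 7.59 CPM in TC-71-R, against 19.8, 18.2 and 20.3 CPM in TC-71 parental. On the log2(CPM + 1) scale KCNG1 was the one member to pass with 2-fold or more in opposite directions, with a log2 fold change of 1.55 ± 0.06 in A4573-R (limma adjusted p = 1.2e-11) and -1.24 ± 0.06 in TC-71-R (limma adjusted p = 8.5e-11). By the ratio of mean CPM, members with fewer CPM such as SCN3A, KCNC4 and KCNJ11 also passed 2-fold in opposite directions. The ratio of SCN3A in TC-71 rests on few reads. KCNV1 had 1.85, 1.72 and 1.89 CPM in TC-71-R, against 6.23, 6.1 and 6.08 CPM in TC-71 parental, a log2 fold change of -1.34 ± 0.06. In A4573 its groups overlap, at 0.926, 1 and 0.956 CPM in A4573-R, against 1.06, 1.11 and 0.843 CPM in A4573 parental.

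KCNC4, a fast potassium channel gene of the Shaw type, had 0.419, 0.4 and 0.53 CPM in A4573-R, against 1.79, 1.7 and 1.89 CPM in A4573 parental, and 13.6, 14.5 and 12.9 CPM in TC-71-R, against 5.16, 5.1 and 4.81 CPM in TC-71 parental. KCNC4 was lower in A4573-R and higher in TC-71-R in every library, with log2 fold changes of -0.95 ± 0.06 (limma adjusted p = 7.7e-10) and 1.28 ± 0.06 (limma adjusted p = 1.3e-11).

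Potassium channels opened by calcium or sodium inside the cell had 4 tested genes. KCNN1 was the most abundant and varied little across the groups, with 28.5 ± 0.408 CPM in A4573-R and 34.2 ± 0.667 CPM in A4573 parental, and 36.1 ± 0.483 CPM in TC-71-R and 27.5 ± 0.641 CPM in TC-71 parental (SD, n = 3 each). KCNN1 was lower in A4573-R (log2 fold change -0.25 ± 0.03) and higher in TC-71-R (0.38 ± 0.03). KCNMA1, the pore of the large-conductance BK channel, had 2.52, 2.46 and 2.57 CPM in A4573-R, against 1.21, 0.954 and 1.26 CPM in A4573 parental, and 1.58, 2.11 and 1.46 CPM in TC-71-R, against 2.9, 2.64 and 3.27 CPM in TC-71 parental. KCNMA1 was higher in A4573-R (0.72 ± 0.08) and lower in TC-71-R (-0.54 ± 0.08), with no overlap in either line. The sodium-activated channel gene KCNT2 likewise was higher in A4573-R (0.54 ± 0.10) and lower in TC-71-R (-0.79 ± 0.10).

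KCNMB3 and KCNMB4 encode auxiliary subunits of the BK channel. KCNMB4, found mainly in brain, had 14.4, 15.4 and 14.3 CPM in A4573-R, against 5.09, 4.65 and 4.93 CPM in A4573 parental, and 7.77, 6.78 and 7.4 CPM in TC-71-R, against 6.01, 5.68 and 6.01 CPM in TC-71 parental. No overlap was seen in either line, and the derivatives were higher by 1.41 ± 0.05 in A4573-R and 0.27 ± 0.05 in TC-71-R. KCNMB3 had 0.429, 0.288 and 0.381 CPM in TC-71-R, against 2.25, 2.08 and 1.95 CPM in TC-71 parental (log2 fold change -1.18 ± 0.06), and its A4573 groups overlap. Other genes share 47.5% of the exon bases of KCNMB3, so its values are uncertain. In A4573-R the pore gene KCNMA1 and KCNMB4 were thus both higher, while in TC-71-R KCNMA1 and KCNMB3 were lower and KCNMB4 was higher.

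Inward rectifiers pass potassium into the cell more easily than out and help to set the resting voltage. Of 7 tested, 3 were higher and 2 lower in A4573-R, and 2 were higher and 4 lower in TC-71-R, against 72.5% and 78.5% of all tested genes past the threshold. KCNJ8 and KCNJ11 encode the pores of ATP-sensitive potassium channels, which link metabolism to voltage. KCNJ8 had 18.1, 16.2 and 18.8 CPM in A4573-R, against 19.2, 19.4 and 18.4 CPM in A4573 parental, and 2.28, 2.49 and 2.36 CPM in TC-71-R, against 9.79, 10.1 and 10.2 CPM in TC-71 parental. KCNJ11 had 0.506, 0.487 and 0.426 CPM in A4573-R, against 0.186, 0.186 and 0.12 CPM in A4573 parental, and 0.178, 0.354 and 0.402 CPM in TC-71-R, against 1.99, 1.62 and 1.79 CPM in TC-71 parental. Both were lower in TC-71-R with no overlap, with log2 fold changes of -1.71 ± 0.05 (limma adjusted p = 2.3e-13) and -1.10 ± 0.07 (limma adjusted p = 5.3e-10). KCNJ11 passed the filter only through the TC-71 parental libraries, so it had to differ there and the p-value of its fall is a description only. In A4573-R KCNJ8 did not pass (-0.10 ± 0.05, limma adjusted p = 0.11) and KCNJ11 was higher (0.34 ± 0.07, limma adjusted p = 0.0003).

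KCNJ12, a strong inward rectifier of heart and muscle, had 15.6, 12.4 and 17.3 CPM in A4573-R, against 24.1, 22.7 and 25 CPM in A4573 parental, and 3.47, 3.21 and 3.65 CPM in TC-71-R, against 1.55, 1.28 and 1.91 CPM in TC-71 parental. KCNJ12 was lower in A4573-R (-0.64 ± 0.10) and higher in TC-71-R (0.79 ± 0.10), with no overlap in either line. KCNJ18, a nearly identical copy, is listed at 0 in all 12 libraries, so how the counting split reads between the copies is uncertain. KCNJ2, a close relative, had 1.74, 1.97 and 1.52 CPM in A4573-R, against 0.266, 0.465 and 0.398 CPM in A4573 parental, and at most 1 read in any TC-71 library. KCNJ2 was higher in A4573-R by 1.00 ± 0.06 (limma adjusted p = 1.4e-09). It passed the filter only through the A4573-R libraries, so it had to differ and its p-value is a description only.

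Two-pore potassium channels carry the background leak of potassium. KCNK1 had 2.78, 2.32 and 2.6 CPM in A4573-R, against 0.252, 0.396 and 0.265 CPM in A4573 parental, and no read in any of the 6 TC-71 libraries, where 3 reads are worth 0.0309 to 0.0444 CPM. KCNK6 had 2.1, 2.3 and 2.07 CPM in A4573-R, against 0.345, 0.361 and 0.313 CPM in A4573 parental, and 4.74, 4.38 and 4.01 CPM in TC-71-R, against 2.49, 2.4 and 2.3 CPM in TC-71 parental. The derivatives stand above their parents without overlap where the gene was detected. KCNK1 was higher in A4573-R by 1.45 ± 0.06 (limma adjusted p = 4.7e-12). It passed the filter only through the A4573-R libraries, so it had to differ and its p-value is a description only. KCNK6 was higher by 1.23 ± 0.06 in A4573-R (limma adjusted p = 3.5e-11) and 0.66 ± 0.06 in TC-71-R (limma adjusted p = 3e-08). KCNK2, a channel opened by stretch, averaged 3.46 ± 0.354 CPM in A4573-R and 3.16 ± 0.0882 CPM in A4573 parental, did not pass there (0.10 ± 0.05, limma adjusted p = 0.12), and had no read in any TC-71 library.

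On the log2(CPM + 1) scale, the auxiliary potassium channel genes KCNE3 and KCNE4 were the 2 members lower by 2-fold or more in A4573-R. By the ratio of mean CPM, KCNC4 (0.251 times the parent), SCN4B (0.417) and KCNH7 (0.489) were lower by more than 2-fold as well. KCNE3 encodes a small membrane protein that keeps KCNQ1 channels open in epithelia. It lies on chromosome 11 (74454841 to 74467729, minus strand), and had 25, 26.5 and 28.5 CPM in A4573-R, against 81.7, 83.8 and 84.1 CPM in A4573 parental, and 18.5, 15.8 and 19.4 CPM in TC-71-R, against 52, 53.6 and 55.6 CPM in TC-71 parental. Both derivatives stand below both parents. The mean CPM of the derivative was 0.32 times that of the parent in A4573 (log2 fold change -1.61 ± 0.06, limma adjusted p = 4.4e-12) and 0.333 times in TC-71 (-1.54 ± 0.06, limma adjusted p = 3.7e-12). The difference of the changes did not pass (-0.07 ± 0.09, limma adjusted p = 0.48), which does not show that they are equal. An antisense gene shares 16.6% of the exon bases of KCNE3.

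KCNE4, a relative that inhibits several potassium channels, on chromosome 2 (223051814 to 223198399, plus strand), had 9.08, 9.21 and 8.66 CPM in A4573-R, against 28.8, 29.2 and 28.6 CPM in A4573 parental, and 74.5, 70.1 and 69.8 CPM in TC-71-R, against 117, 122 and 126 CPM in TC-71 parental. It too was lower in both derivatives with no overlap, with log2 fold changes of -1.58 ± 0.04 in A4573-R (limma adjusted p = 3.5e-14) and -0.76 ± 0.04 in TC-71-R (limma adjusted p = 6.1e-11). The fall was larger in A4573-R by a log2 difference of -0.82 ± 0.05 (limma adjusted p = 2.1e-09). KCNQ1, the usual partner of the KCNE proteins, did not pass the filter.

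The cytoplasmic beta subunit genes KCNAB2 and KCNAB3, whose products bind Shaker-type channels, were higher in TC-71-R. KCNAB2 had 16.3, 14.4 and 15.3 CPM in TC-71-R, against 7.26, 6.91 and 6.72 CPM in TC-71 parental (log2 fold change 1.04 ± 0.06, limma adjusted p = 1.1e-10). Its change in A4573-R was small, 0.16 ± 0.06 (limma adjusted p = 0.017), and was lost under several of the other settings. KCNAB3 averaged 23.1 ± 0.536 CPM in A4573-R and 19.6 ± 0.328 CPM in A4573 parental, and 43.4 ± 4.55 CPM in TC-71-R and 23.6 ± 0.475 CPM in TC-71 parental. It was higher in both derivatives, by 0.23 ± 0.06 and 0.84 ± 0.06. KCNIP2 and KCNIP3, which encode calcium-binding partners of A-type channels, were both lower in A4573-R (-0.34 ± 0.06 and -0.30 ± 0.06) and higher in TC-71-R (0.34 ± 0.06 and 0.32 ± 0.06).

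**Figure D4:**
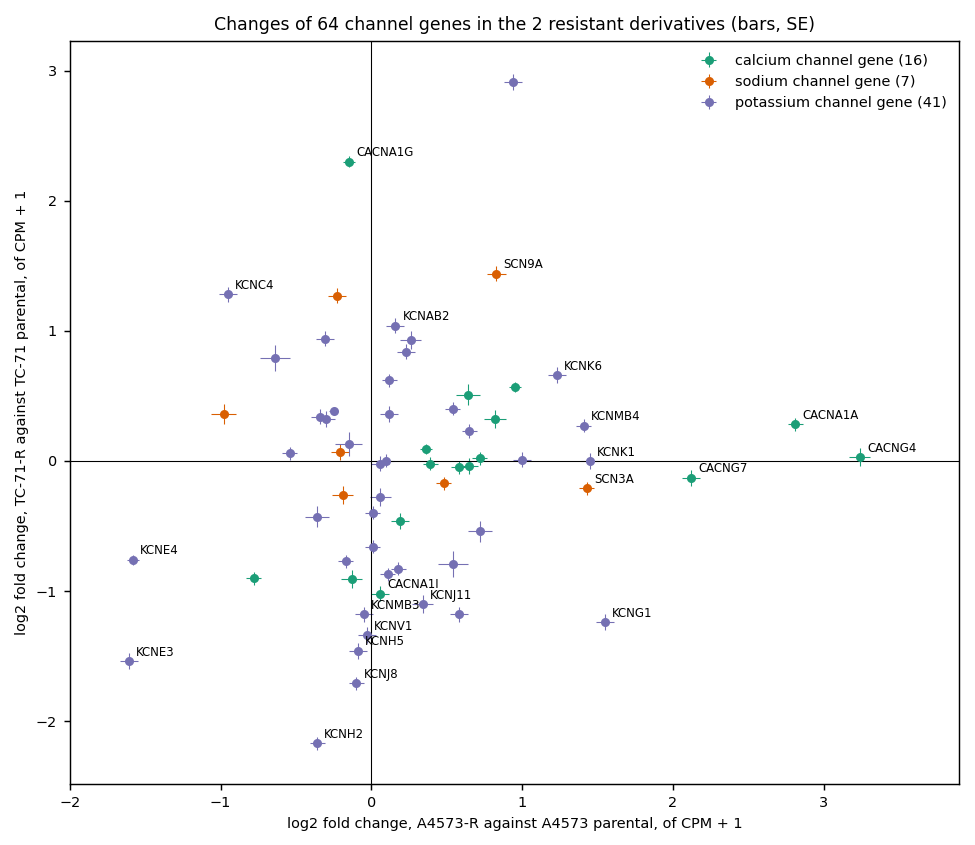
log2 fold change of CPM + 1 of the 64 tested channel genes in A4573-R against A4573 parental (horizontal axis) and in TC-71-R against TC-71 parental (vertical axis), with SE bars and colours for calcium, sodium and potassium channel genes. KCNE3 and KCNE4 lie at lower left, KCNG1 at lower right, KCNC4 at upper left, and CACNG4, CACNA1A and CACNG7 far right near a change of 0 in TC-71-R.

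Across the family, 39 of the 64 members passed in both derivatives, against 57.5% of all tested genes. Of the 39, 13 were higher in both, 7 lower in both, and 19 (48.7%) changed in opposite directions, against 45.6% of the genes that passed in both over the whole table. Of the 19, 10 were higher in A4573-R and lower in TC-71-R and 9 the reverse, and 3 members passed in neither derivative. The difference between the change in A4573-R and the change in TC-71-R passed for 55 members, 36 above and 19 below 0, and 78.1% of all tested genes passed. At a difference of 1 log2 unit or more there were 25 members, against 16.5% of all tested genes, 18 above 0 against 9.79% and 7 below 0 against 6.72%. On the log2(CPM + 1) scale the reported members whose changes differed most were CACNG4, with a difference of 3.21 ± 0.11, and KCNG1 with 2.79 ± 0.09. CACNA1A with 2.54 ± 0.07, CACNA1G with -2.45 ± 0.06, CACNG7 with 2.25 ± 0.09 and KCNC4 with -2.23 ± 0.08 came next.

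The family also differed widely between the parental lines. In A4573 parental against TC-71 parental 61 of 64 members passed, 25 higher and 36 lower, against 89.9% of all tested genes, 44.1% higher and 45.9% lower. At 2-fold or more there were 32, 11 higher and 21 lower, against 30.6% of all tested genes, 14.6% higher and 16% lower. The libraries did not overlap for 62 members and for 92.5% of all tested genes. The median size of the difference was 1.05, against 0.62 over all tested genes, and the derivatives had changed by 0.36 and 0.53. Of 17 voltage-gated potassium channel genes 4 were higher and 13 lower in A4573 parental, while of 7 sodium channel genes 6 were higher and 1 lower. A mean of 1 CPM or more was confined to the A4573 lines for 13 tested members and to the TC-71 lines for 12. The same was not counted over all tested genes, so these 2 counts do not set the family apart. This comparison shares its parental libraries with the others.

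KCNS3, a silent subunit gene, on chromosome 2 (17877847 to 18361616, plus strand), had 30.7, 26.2 and 31.4 CPM in A4573-R and 23.7, 24.8 and 24.7 CPM in A4573 parental. In the other line it had 1.48, 1.59 and 1.82 CPM in TC-71-R and 0.358, 0.411 and 0.377 CPM in TC-71 parental. On the log2(CPM + 1) scale its fold change between the parental lines was the highest of the family, 4.20 ± 0.07, and CACNA1C followed with 4.13 ± 0.05. Next were KCNJ12 with 3.28 ± 0.10, SCN4B with 2.65 ± 0.08, CACNA1G with 2.63 ± 0.04 and KCNK2 with 2.06 ± 0.05. KCNK2 had no read in TC-71 parental, so its value depends on the pseudocount.

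On the other side, KCNH5 averaged 0.263 ± 0.0283 CPM in A4573 parental and 12.3 ± 0.157 CPM in TC-71 parental (log2 fold change -3.40 ± 0.06). KCNH7 followed with -2.74 ± 0.06 and KCNJ4, an inward rectifier of brain, with -2.36 ± 0.05. CACNA1I with -2.31 ± 0.06, and KCNG1 and KCNE4 with -2.04 each, were also lower in A4573 parental. In the derivatives, KCNJ4 had 0.694, 0.85 and 0.788 CPM in A4573-R, against 0.173, 0.105 and 0.108 CPM in A4573 parental, and 6.03, 5.76 and 5.57 CPM in TC-71-R, against 4.71, 5.05 and 4.58 CPM in TC-71 parental. KCNJ4 was higher in both, by 0.65 ± 0.05 and 0.23 ± 0.05.

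Other channels and their partners outside the symbol pattern were followed in 6 lists of 122 genes, of which 87 passed the filter. In A4573-R 45 of them were higher and 29 lower, against 38.3% and 34.1% of all tested genes. In TC-71-R 35 were higher and 40 lower, against 38.8% and 39.6% of all tested genes. The sodium-potassium pump keeps the gradient that potassium channels use. The list of the pump and of potassium cotransport had 9 of 10 tested genes higher and 1 lower in A4573-R. Its median log2 fold change there was 0.57, against 0.02 over all tested genes. In TC-71-R 3 of the 10 were higher and 6 lower, with a median of -0.35, against -0.00 over all tested genes. These counts stand beside the same backgrounds. The lists were drawn up with earlier results of these data known and were not tested as sets.

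GEM encodes a small GTPase that binds calcium channel beta subunits and lowers calcium current. It had 4.02, 4.39 and 4.04 CPM in A4573-R, against 0.585, 0.465 and 0.398 CPM in A4573 parental, and 3.24, 3.71 and 3.26 CPM in TC-71-R, against 10.1, 10 and 10.1 CPM in TC-71 parental. It was higher in A4573-R (1.80, limma adjusted p = 9.3e-13) and lower in TC-71-R (-1.33, limma adjusted p = 1.3e-11), the same directions as KCNG1. DPP10, an auxiliary protein gene of A-type potassium channels, had 4.5, 4.89 and 4.53 CPM in TC-71-R, against 0.978, 0.881 and 0.665 CPM in TC-71 parental, and at most 1 read in any A4573 library.

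The calcium-activated chloride channel gene ANO1 was higher in both derivatives, with a log2 fold change of 3.37 in A4573-R and 1.33 in TC-71-R. ITPR2, which releases calcium from internal stores, had 1.85, 1.57 and 1.71 CPM in TC-71-R, against 18.7, 17.7 and 17.6 CPM in TC-71 parental (-2.81, limma adjusted p = 2.1e-15). The cotransporter gene SLC12A7, which moves potassium and chloride out of the cell, had 12.3, 11 and 11.1 CPM in TC-71-R, against 1.29, 1.12 and 1.28 CPM in TC-71 parental (2.48, limma adjusted p = 6.7e-15). REST, a repressor of neuronal genes that include channel genes, averaged 23.4 ± 2.07 CPM in A4573-R and 24.7 ± 0.863 CPM in A4573 parental, and 26.2 ± 1.43 CPM in TC-71-R and 32.4 ± 0.927 CPM in TC-71 parental (SD, n = 3 each). It did not pass in A4573-R (-0.08, limma adjusted p = 0.2) and was lower in TC-71-R (-0.30, limma adjusted p = 0.00016).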

How the data were processed

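Total RNA of 12 libraries was sequenced as paired ends after a TruSeq RNA library preparation, per the labels' protocols. No source used here says whether the strand was kept. The tools of the authors were Trimmomatic, STAR 2.4, HTSeq and edgeR, and the genome was GRCh38, per the submitters' processing notes. The deposited signal is a CPM per gene scaled by the authors; the sum of a column lies between 0.94 and 1.119 M (M, 1000000). Dividing a column by its smallest step gives whole numbers within 0.001, and these served as reads. Of 58293 entries, 5 carry no gene name and were left out; their share of a library's reads is 30.6% to 42.0%. Entries that share a symbol (1932, for 253 symbols) were summed.

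Genes that reached 1 CPM in 3 or more libraries were fitted as log2(CPM + 1) with limma 3.58.1 in R 4.3.3 (moderated variances with a trend, a mean for each of the 4 groups, all 12 libraries), with Benjamini-Hochberg adjustment over all of them and a threshold of 0.05. The alternatives were edgeR 4.0.16 and DESeq2 1.42.0 on the recovered reads, pseudocounts of 0.25 and 5, other filters and scalings, the 2 groups alone, library weights, a replicate block and leaving out each library. The pipeline was tested on simulated data. Exon lengths and positions come from GENCODE 29 on GRCh38, and promoters from RefSeq. Members and lists were chosen with earlier results of these data known.

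Named genes are those past the threshold with no overlap and 2-fold or more in a derivative, with a difference of 1 log2 unit between lines, the 6 highest and 6 lowest between the parental lines, the 8 highest per kilobase, the most abundant of each class, and up to 3 partner genes per direction and derivative. Other members were named after their values were seen. Some genes that meet these rules are not reported here, but counts over the family include them. Within groups, the correlation of log2 values was 0.9974 to 0.9993, and no libraries agreed within sampling noise.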

Additional observations from a re-analysis of the deposited data

Results flagged for a closer look

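The changes in the 2 derivatives differed by 1 log2 unit or more for the 22 channel genes given here, and the test of that difference (limma, the change in A4573-R minus the change in TC-71-R) gave adjusted p-values of at most 6.1e-07 for each of them. Of the 22, 17 had a difference above 0 and 5 below 0. Of all tested genes 9.79% passed at this size above 0 and 6.72% below 0. A difference above 0 can be a rise in A4573-R or a fall in TC-71-R. For KCNJ8 the log2 fold change was -0.10 in A4573-R, which did not pass, and -1.71 in TC-71-R. With 3 libraries in a group, single libraries were not examined as outliers.

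Among calcium channel genes the differences were 3.21 for CACNG4, 2.54 for CACNA1A, 2.25 for CACNG7, 1.08 for CACNA1I and -2.45 for CACNA1G. Among sodium channel genes they were 1.65 for SCN3A and -1.34 for SCN4B. The voltage-gated potassium channel genes gave 2.79 for KCNG1, 1.81 for KCNH2, 1.38 for KCNH5, 1.31 for KCNV1, 1.00 for KCNQ5, -1.25 for KCNH7 and -2.23 for KCNC4. The other potassium channel genes gave 1.61 for KCNJ8, 1.45 for KCNK1, 1.44 for KCNJ11, 1.33 for KCNT2, 1.26 for KCNMA1, 1.14 for KCNMB4, 1.13 for KCNMB3 and -1.43 for KCNJ12. KCNK1 had no read in any TC-71 library, and its difference did not pass with edgeR or DESeq2. CACNA1A, CACNG7 and KCNK1 passed the filter only through A4573-R, and KCNJ11 only through TC-71 parental. Their p-values are descriptions only.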

How the results depend on the processing

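The number of channel genes past the threshold stayed within 1.5 times its main value in every alternative run except the filter at a mean of 5 CPM, which leaves 29 members and called 26 of them in A4573-R, 25 in TC-71-R, 26 for the difference of the changes and 29 between the parental lines. Without 1 library at a time there were 47 to 51 members in A4573-R, 49 to 51 in TC-71-R, 55 to 57 for the difference and 58 to 62 between the parental lines. Counts at 2-fold or more depend on the scale, since a larger pseudocount shrinks the fold of genes with few CPM. In A4573-R there were 10, against 17 with a pseudocount of 0.25, 5 with a pseudocount of 5, 5 with the filter at 5 CPM, and 24 with edgeR and with DESeq2. In TC-71-R there were 16, against 6 with a pseudocount of 5, 10 with the filter at 5 CPM, and 29 with edgeR and with DESeq2. The difference of the changes gave 25, against 7 with a pseudocount of 5 and 13 with the filter, and the parental lines gave 32, against 13 and 16. Leaving out each library gave 10 to 12, 15 to 16, 24 to 26 and 32 to 33 members at 2-fold or more.

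Over the named genes and their comparisons, 128 of 142 values were past the threshold, and none of these reversed. Of the 128, 7 lost the call in at least 1 setting: with edgeR and DESeq2 the differences of CACNA1C and KCNK1, with a pseudocount of 5 those of KCNJ4, KCNK6 and KCNS3, with quantile normalization KCNMB4 between the parental lines, and in several settings KCNAB2 in A4573-R. Values that changed sign were all of comparisons that had not passed and at most 0.08 in size, and the cause was not tested. With quantile normalization they were 0.01 for CACNA1C and 0.05 for CACNG7 in TC-71-R, -0.05 for CACNA1I and -0.02 for KCNK2 in A4573-R, and 0.08 for KCNE3 and -0.02 for KCNK2 as differences. The difference was 0.01 for KCNE3 with CPM over named genes and -0.02 for KCNK2 with DESeq2, and CACNG4 in TC-71-R gave -0.06 with library weights. Leaving out each library in turn gave -0.06 to 0.01 for CACNA1C and -0.03 to 0.09 for CACNG4 in TC-71-R, and -0.02 to 0.11 for CACNA1I, -0.11 to 0.01 for KCNMB3 and -0.09 to 0.01 for KCNV1 in A4573-R.

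With the replicate number as a block, 49 members passed in A4573-R, 50 in TC-71-R, 55 for the difference and 61 between the parental lines. Libraries with the same number did not deviate together (correlations of -0.097 to 0.165 over 18 pairs, median 0.0035), so the numbers were not taken to pair them. Under every scaling the median log2 fold change of all tested genes was at most 0.087 in size in each comparison. Depth limits values of genes near the worth of a read, 0.0103 to 0.0148 CPM.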
